A study of Mus musculus with 5 samples.

Results

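Stefin-high neutrophils are the cells of the AT3-gcsf library in which Stfa1, Stfa2 and Stfa3 together made up at least 0.4% of all transcript counts (UMIs, unique molecular identifiers, 1 per captured RNA molecule). They were chosen among tagged cells with at least 200 detected genes, under 10% mitochondrial UMIs and at least 2% of UMIs from S100a8 and S100a9, the calprotectin genes that neutrophils transcribe heavily. The rule found 1227 of 10038 tagged neutrophils of that library, or 12.2% (exact Clopper-Pearson 95% interval 11.6 to 12.9, counting error only), out of 26406 cell barcodes in the whole series. The other 8811 tagged neutrophils of the same library were the comparison.

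Stefins are small cystatins, proteins that block lysosomal cysteine proteases such as the cathepsins by sitting in their active site. Mice carry a tandem cluster of stefin A genes, related to the single human gene for cystatin A, and several of these genes are known from myeloid cells and neutrophils. Cystatin B, made from Cstb, is the second intracellular stefin, and cystatin C, made from Cst3, is the secreted member of the wider family. G-CSF, the product of Csf3, drives the production and release of neutrophils from bone marrow.

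The study sorted neutrophils of 3 organs (bone marrow, blood and lung) from female wild-type C57BL/6J mice that were naive, bore AT3 tumours or bore AT3-gcsf tumours. AT3 is a mouse mammary carcinoma line, and the name AT3-gcsf points to a version of it with G-CSF. The labels used here state no age, animal number or pooling, and not how the line was made. Cells of each condition carried 1 of 3 hashtags, antibody-bound barcodes that mark which sample a cell came from, and about 24000 cells, 8000 per hashtag, went into 1 lane. Each condition thus has 1 library, condition and lane cannot be told apart, and no label ties a hashtag to a tissue, so hashtags are given by name (MHTO3, MHTO4 and MHTO5 in AT3-gcsf). Hashtags show how a value varies within the library and are not replicates, so no p-value was computed. The AT3-gcsf library held 10828 barcodes with 99703525 UMIs, beside 7738 with 32089597 in naive and 7840 with 54424062 in AT3. The AT3-gcsf library shared 20 barcode sequences with each of the other 2 libraries, and 3 and 2 of the stefin-high cells had a barcode also seen in naive and AT3.

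All 5 genes called higher in these cells, by the measure given below, lie in 1 stretch of chromosome 16, and many genes of that stretch share a word in front of their start, which is shown first. The RefSeq promoter table (GRCm38.p6) has 11 genes in the cluster, 9 of them also in the count table. In 7 of these 9 the 100 bases before the start held the 12-base word ACCTTTAAAACC: the 3 genes of the rule, 3 of the 5 genes called higher (Cstdc5, Cstdc4 and Stfa2l1) and Csta3. Of the other called genes, Csta2 lacked it and Cstdc6 has no entry. The 30 bases around it follow, 5′ to 3′ on each gene's own strand, with the word in capitals.

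Stfa1 (chr16:36277106-36277135, plus strand): ctttcggatACCTTTAAAACCctgagtctc
Stfa2 (chr16:36408375-36408404, minus strand): cttacagaaACCTTTAAAACCctgagtctc
Stfa3 (chr16:36455406-36455435, minus strand): ttacagataACCTTTAAAACCccgagtctc
Cstdc5 (chr16:36367571-36367600, minus strand): gaggaggagtttacagatACCTTTAAAACC
Cstdc4 (chr16:36184171-36184200, plus strand): tttacagatACCTTTAAAACCctgactctt
Stfa2l1 (chr16:36156766-36156795, plus strand): tttacagaaACCTTTAAAACCctgagtctc
Csta3 (chr16:36210314-36210343, plus strand): tttacagatACCTTTAAAACCccgagtctc

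The wider 100 bases are shown for Stfa3, a gene of the rule, and Cstdc4, outside it, because their windows touch no annotated exon.

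Stfa3 (chr16:36455393-36455492, minus strand): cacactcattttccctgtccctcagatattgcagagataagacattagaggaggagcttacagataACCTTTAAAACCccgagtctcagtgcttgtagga
Cstdc4 (chr16:36184112-36184211, plus strand): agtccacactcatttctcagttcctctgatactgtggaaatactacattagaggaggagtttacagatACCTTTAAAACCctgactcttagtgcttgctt

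The word was found by comparing these promoters with each other, after the values were seen, and is a description of them. Searched on both strands in the same 100-base window, it occurred in 10 of 32851 RefSeq promoters. Of these, 9 were in the chromosome 16 cluster (the 7 above, and Cstdc3 and Gm7260, which are not in the count table under these names) and 1 was Gm39539 on the X chromosome. Its middle, TTTAAAA, resembles a TATA box and occurred in the same 7 of these 9 cluster promoters and in 2.74% of all promoters. Csta1 also lacked the word. In Stfa1, Stfa2 and Cstdc5 the 100-base window overlapped GENCODE exons by 100, 94 and 100 bases. In Csta2 and Csta1, which lack the word, it did so by 94 and 52 bases. The 2 annotations thus place the start differently in these genes, and the lack of the word is stated for this window only. The STAT half-site pair TTCNNNGAA was in 0 of these 9 cluster windows and 2.55% of all, the C/EBP-like TTGCNNAA in 1 of 9 (Cstdc5) and 3.43%, and the PU.1-like GAGGAA in 4 of 9 (Stfa2, Cstdc4, Stfa2l1 and Csta1) and 9.82%. A match says only that these letters are present in this window.

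Stefin-high cells were found under every hashtag of the library. They were 276 of 2853 neutrophils of MHTO3 (9.67%, 8.61 to 10.8), 519 of 3505 of MHTO4 (14.8%, 13.6 to 16.03) and 432 of 3680 of MHTO5 (11.7%, 10.7 to 12.8). MHTO4 had the largest share and MHTO3 the smallest, and these 2 intervals did not overlap. Stefin-high cells held 78.5% of the Stfa1, Stfa2 and Stfa3 UMIs of the tagged neutrophils, while 41.7% of the tagged neutrophils had none.

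**Figure D1:**
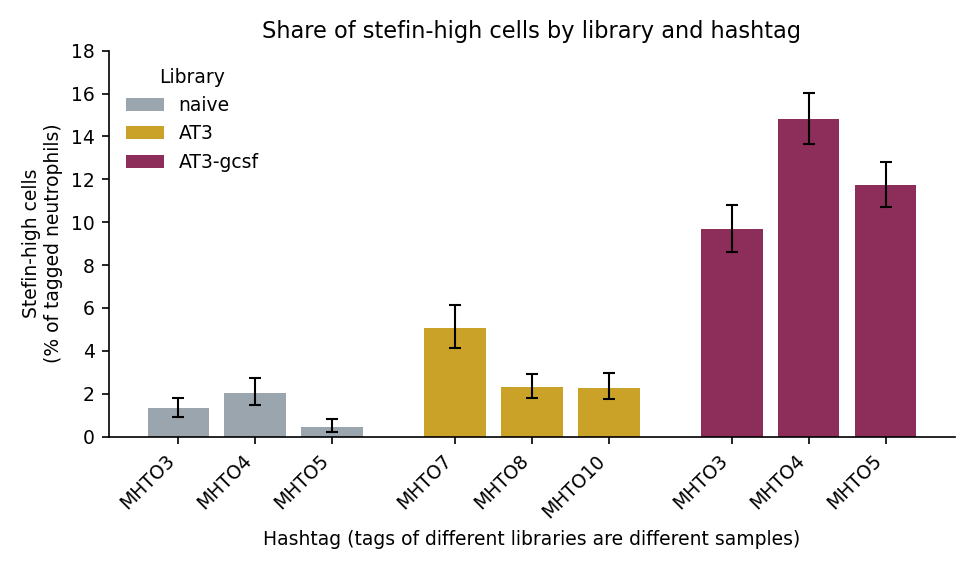
Share of tagged neutrophils that are stefin-high (%, vertical axis) for each hashtag of the 3 libraries (horizontal axis), with exact 95% intervals for counting error. The 3 AT3-gcsf hashtags lie between 9.67% and 14.8%, and the 6 others between 0.456% and 5.08%.

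The same rule applied to the other libraries found fewer cells. In AT3 it found 225 of 7423 neutrophils (3.03%, 2.65 to 3.45), at 5.08% of MHTO7, 2.30% of MHTO8 and 2.28% of MHTO10. In naive it found 88 of 6995 (1.26%, 1.01 to 1.55), at 1.31% of MHTO3, 2.04% of MHTO4 and 0.456% of MHTO5. Every AT3-gcsf hashtag thus lay above every hashtag of the other 2 libraries. Depth differed between the libraries, with medians of 2774, 4753 and 7294 UMIs in the cells outside the rule. With each cell thinned to 2000 UMIs, leaving out 1340, 259 and 145 shallower cells, the shares were 1.43%, 3.38% and 12.9%. Stefin UMIs outside the stefin-high cells followed the same order, at 78.4, 209 and 483 CPM over all UMIs (CPM, UMIs scaled to the same summed total) in naive, AT3 and AT3-gcsf. With 1 library per condition these differences have no replicate check, and the hashtags of one library are not the same samples as those of another.

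The limit of 0.4% cuts a continuous distribution. The member nearest the limit had 22 stefin UMIs of 5500 (0.4%), and the nearest cell outside had 35 of 8753 (0.399863%). The bands just inside (0.40% to 0.44%) and just outside (0.36% to 0.40%) held 101 and 98 cells. The median member had 76 stefin UMIs, and the median share was 0.753% of UMIs, with quartiles of 0.531% and 1.19% and a highest value of 6.62%. The class is therefore a range of a measured share, and whether any of it is a separate cell type was not tested.

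Stefin-high cells were deeper than the others, with a median of 9990 UMIs against 7294 and 1763 detected genes against 1613. The share of stefin-high cells was larger in deeper cells of each hashtag. Between the shallowest and the deepest of 5 equal groups of cells it went from 5.71% to 24.1% in MHTO4, from 4.203% to 15.8% in MHTO3, and from 5.03% to 17.7% in MHTO5. With each cell thinned to 2000 UMIs the same groups still differed, at 5.64% and 23.8% in MHTO4, 4.42% and 17.3% in MHTO3, and 5.53% and 17.1% in MHTO5. Cells with more RNA captured were thus more often stefin-high at equal counting depth. Mitochondrial UMIs were similar, with medians of 1.36% and 1.44%, and S100a8 plus S100a9 made up 28.0% and 25.1%.

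Markers of neutrophils and of other cells were checked in these cells. Ly6g, a surface marker of mature neutrophils, had a UMI in 79.95% of stefin-high cells and 64.1% of the others, against 11.9% of the 126 tagged cells with little S100a8 and S100a9, whose median depth was 3754 UMIs. Of 8 measured neutrophil markers outside the rule, 0 were called by the measure used below (1.09% of all genes were), with a median log2 ratio of 0.03. Markers of erythroid cells, platelets, basophils and dendritic cells summed to under 1 CPM under every hashtag of the stefin-high cells. B cell markers summed to 6.68 to 13.4 CPM there and 8.44 to 14.9 CPM in the others, and T or NK cell markers to 0 to 1.91 and 1.26 to 9.03 CPM. Monocyte or macrophage markers summed to 273 to 341 and 283 to 349 CPM, and endothelium or fibroblast markers to 3.82 to 8.70 and 5.55 to 18.4 CPM. Alveolar macrophage markers summed to 340 to 431 and 343 to 392 CPM, eosinophil markers to 14.0 to 19.5 and 16.003 to 42.3 CPM, and lung epithelium markers to 17.95 to 22.7 and 21.3 to 146.7 CPM. Of the markers listed for these 3 types, 6 of 8, 5 of 7 and 4 of 8 had 0 UMIs in the stefin-high cells. Early neutrophil precursor markers summed to 2400 to 5052 and 2904 to 5373 CPM. The list of primary granule genes used below shares Elane, Mpo, Prtn3, Ctsg, Prss57 and Ms4a3 with it. That list summed to only 105 to 208 and 92.9 to 557 CPM. Most of the precursor sum thus came from the rest of its list, which includes Srgn, and is not read as a precursor signal. None of these lists of other cells was higher in the stefin-high cells under all hashtags.

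Counts were summed over the cells of each group within each hashtag and compared as the log2 ratio of CPM plus 5, averaged over the 3 hashtags. A gene was called when this mean reached 1.5-fold with the same sign in each hashtag and its level reached 20 CPM in the higher group. Of 3312 genes outside the 5 of the rule, 36 (1.09%) were called, 5 higher (0.151%) and 31 lower (0.936%) in stefin-high cells. These cells were chosen on the same counts, so the values describe the class and test nothing. The ratio of all 3312 genes had a median of −0.14, and each value below can be read against it. Errors given are counting errors (SE) only. Without MHTO5, 57 genes were called (6 higher, 51 lower). With TMM scaling, which moved the median of all genes to 0.01, 20 were called, 7 higher (Csta3 and Atp1b3 added) and 13 lower.

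The 5 higher genes were all stefin A paralogs. Cstdc5, a stefin-like cystatin gene, is outside the rule but was among the markers given for these cells, so its level is no separate support. It was at 6830, 8306 and 4897 CPM in stefin-high cells of MHTO3, MHTO4 and MHTO5 and at 476, 670 and 508 CPM in the others. The groups did not overlap, and the log2 ratio was 3.57 ± 0.01. Csta2, another cystatin A gene, was at 285, 212 and 300.1 CPM against 29.2, 46.0 and 46.2 CPM, a log2 ratio of 2.58 ± 0.03. Cstdc4 was at 5558, 5619 and 4935 CPM against 1284, 1471 and 1537 CPM, a log2 ratio of 1.91 ± 0.01. Like Cstdc5, these 2 genes encode predicted inhibitors of the cystatin fold and were high under every hashtag. Cstdc6, with few UMIs, was at 17.6, 24.9 and 18.4 CPM against 1.68, 3.50 and 2.30 CPM, a log2 ratio of 1.75 ± 0.08. Stfa2l1, a Stfa2-like gene, was at 3047, 2827 and 2977 CPM against 1366, 1401 and 1387 CPM, a log2 ratio of 1.09 ± 0.01. It had the smallest ratio of the 5. Without MHTO4, Cstdc6 (1.72) was not called, because its level in MHTO3 and MHTO5 missed the 20 CPM limit.

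The genes of the rule are shown for their size. Stfa1 was at 5228, 5296 and 3851 CPM against 184, 198 and 186 CPM. Stfa2 was at 3372, 3899 and 3509 CPM against 186, 210.1 and 215 CPM. Stfa3 was at 1575, 1987 and 1312 CPM against 74.1, 95.3 and 90.2 CPM. Their log2 ratios of 4.61, 4.11 and 4.14 follow from the choice of cells. Counts come from the 3′ ends of transcripts, and a gene's level is compared only between groups, not with another gene.

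**Figure D2:**
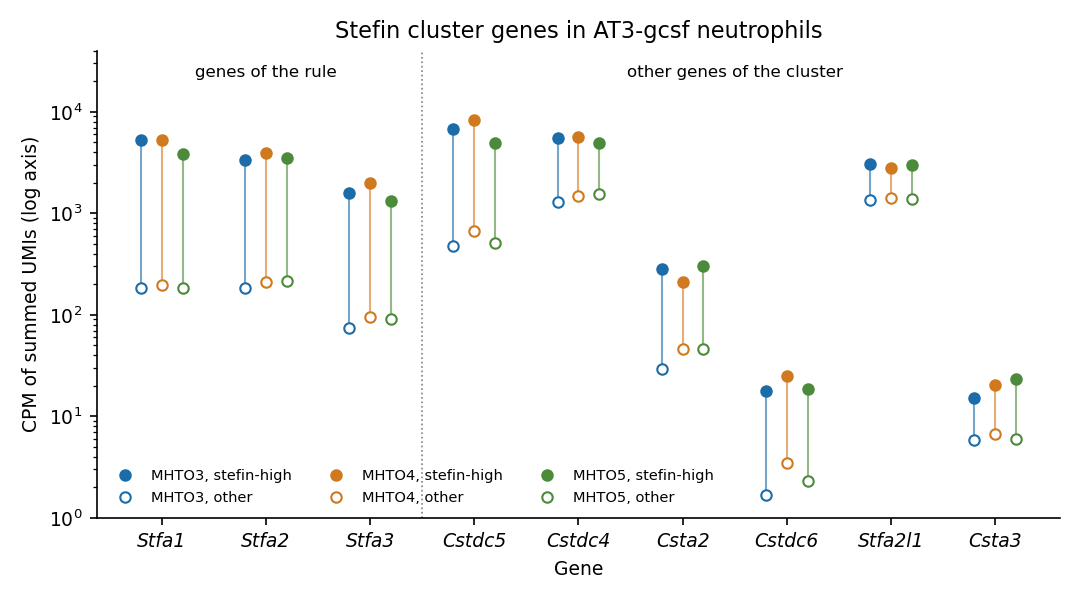
CPM of summed UMIs (log axis) of 9 stefin cluster genes in stefin-high cells (filled) and other neutrophils (open) of the 3 AT3-gcsf hashtags; the first 3 genes chose the cells. For each gene the filled points lie above all open points, from Cstdc5 at 4897 to 8306 CPM against 476 to 670 CPM down to Csta3 at 15.3 to 23.3 CPM against 5.87 to 6.65 CPM.

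Reads of paralogs can be split between them, so it was asked how much transcript end the genes share. Over the last 500 bases of the GENCODE transcripts, 0% to 16.4% of the 90-base stretches of a cluster gene also occurred in another, and of the 50-base stretches 0% to 33.7%. The read length was not used here. Cstdc6 had the largest shares (16.4% at 90 bases and 33.7% at 50), followed by Cstdc5 (14.2% and 28.9%), while Stfa1 had 7.76% and 26.3%, Csta2 10.1% and 24.3%, and Stfa2l1 2.42% and 16.8%. Stfa3 and Csta3 had none at either length. How the authors' counting split shared reads is unknown, so values of the genes with shared stretches are uncertain to that extent, those of Cstdc6 most.

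Cystatin genes elsewhere in the genome did not share the difference. Cstb was at 136, 168 and 185 CPM in stefin-high cells and 156, 180.3 and 198 CPM in the others, a log2 ratio of −0.13 ± 0.03 that was not called. Cst3 was at 605, 639 and 551 CPM against 802, 860.1 and 677 CPM, with a log2 ratio of −0.37 ± 0.02, also not called. Csta3, inside the cluster, was at 15.3, 20.5 and 23.3 CPM against 5.87, 6.65 and 6.01 CPM, but its level missed the 20 CPM limit. Csta1 had 0 UMIs in the stefin-high cells and 1 in the others. Of 7 measured genes of the stefin and cystatin list, 5 were called higher and 0 lower (median 1.75, against −0.14 over all genes). That median is the value of Cstdc6, which passed the 20 CPM limit only through the stefin-high cells (20.3 against 2.49 CPM). The list median therefore describes the class and is no support for it.

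Stefins inhibit cysteine cathepsins. The list used here was wider, with legumain and lysosomal cathepsins of any protease class. Of its 8 measured genes, 0 were called, near the 1.09% over all genes, with a median of −0.12. Ctss, cathepsin S, was at 129, 116 and 116 CPM against 178, 175 and 164 CPM, a log2 ratio of −0.50. Ctsc, the dipeptidyl peptidase that activates neutrophil serine proteases, was at 100.1, 108 and 112 CPM against 94.1, 104 and 109 CPM, a log2 ratio of 0.05. Of 8 measured other protease inhibitors, Stfa2l1 was the 1 called.

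The 5 called genes and the 3 of the rule lay in 1 cluster, with Csta3 and others that were not called between them. After the values were seen, positions were taken from GENCODE vM21 (GRCm38): the cluster spans chr16:36119946-36455392, 335 kb with 10 protein-coding genes, and 8 of the 11 genes of the count table in it were measured. Stfa1 (chr16:36276951-36285373) lies near the middle, Stfa2l1 (chr16:36156811-36161953) near one end, and Stfa3 (chr16:36450537-36455392) at the other. Within 500 kb on either side the table held 23 genes, of which 5 were measured and 0 called, near the 1.09% over all genes. These were Parp14 (log2 ratio −0.40), Dtx3l, Parp9, Hcls1 and Fam162a (0.31), named for their place. With 5 measured genes, 0 calls cannot show where the difference ends. Outside the cluster the largest ratio of any measured gene was 0.54 for Atp1b3, a sodium pump subunit chosen here after its values were seen, at 145 CPM against 97.2 CPM. It was not called over the 3 hashtags, but was with TMM scaling (0.69) and without MHTO4 (0.62). Leaving out 1 hashtag also brought in Cxcl3 without MHTO3 (0.80) and Olfm4 without MHTO5 (0.83).

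The lower genes depended on how depth was handled. Saa3, an acute-phase serum amyloid gene, was at 2810, 1585 and 3612 CPM in stefin-high cells and 4291, 2751 and 5111 CPM in the others, a log2 ratio of −0.63 ± 0.01. Apoe, the lipid carrier apolipoprotein E, was at 61.5, 175 and 73.3 CPM against 110.2, 418 and 98.96 CPM (log2 ratio −0.81 ± 0.05). Hist1h1c, a linker histone gene, was at 88.6, 108 and 131 CPM against 172, 211 and 244 CPM (log2 ratio −0.91 ± 0.04). All 3 were lower in each hashtag as the cells stood. The other cells were shallower, so they were weighted, within each hashtag, to the depth distribution of the stefin-high cells. At matched depth the log2 ratios were −0.28 for Saa3, −0.27 for Apoe and −0.22 for Hist1h1c, none called. Of the 31 lower genes, 31 stayed below 0, and 64.4% of all 3127 genes measured at matched depth were below 0. Of the 31, 25 still reached the 20 CPM limit and could be called, and 2 were called. All 5 higher genes stayed called, with Cstdc5 at 3.40 and Stfa2l1 at 1.16. Weighting moved the median of all measured genes from −0.14 to −0.02. Every cell was also thinned to 2000 UMIs, which equalises counting depth but leaves the shallow cells in. Members were chosen again on the thinned counts (1273 of 9893 cells). This gave the opposite count, with 152 genes called lower, 26 of the 31 among them. Calls also hung on single hashtags: without MHTO4, 14 of the 31 stayed called lower, and Saa3 (−0.56) and Cxcr4 (−0.57) fell short of 1.5-fold. Scimp (−0.98) and Acot1 (−0.75) stayed past 1.5-fold but missed the 20 CPM limit. In MHTO3 and MHTO5 the other cells were at 22.9 and 11.9 CPM for Scimp, and at 14.9 and 9.89 CPM for Acot1.

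The 2 lower genes that stayed called with weighting to matched depth, Elane and Sftpc, rest on few cells. Elane, the neutrophil elastase gene of early precursors, had 2151 UMIs in the other cells, and 10 cells held 98.5% of them; it was at 82.8 CPM in MHTO4 and 0.314 and 0.550 CPM in MHTO3 and MHTO5. Sftpc, the surfactant protein C gene of lung epithelium, had 3232 UMIs there, and 1 MHTO5 cell with 55648 UMIs held 92.8% of them, so that MHTO5 stood at 102.9 CPM and the other 2 hashtags near 1 CPM. Without MHTO4 Elane was at −0.09, and without MHTO5 Sftpc at −0.14, neither called. The remaining 29 lower genes ran from −0.47 (Clec4a3) to −0.07 at matched depth, with a median of −0.27.

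**Figure D3:**
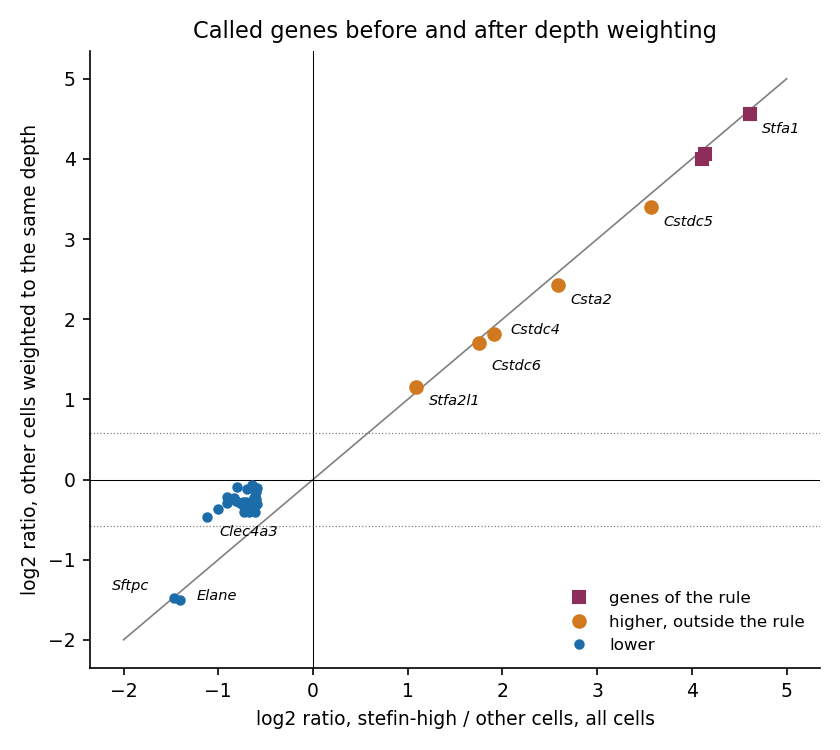
Mean log2 ratio of stefin-high to other neutrophils for the 36 called genes and the 3 stefin genes of the rule, as measured (horizontal) and with the other cells weighted to the same depth (vertical); the line marks equal values and dotted lines the 1.5-fold limit. The 5 higher genes stay near the line, while 29 of the 31 lower genes move to between −0.47 and −0.07.

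Further lower genes were named by rank or as members of lists. Clec4a3 and Clec4n, C-type lectin receptors, had log2 ratios of −1.12 and −0.91, and Scimp, a membrane adaptor of antigen-presenting cells, of −1.01. Clec4a3 was at 20.2, 13.1 and 17.0 CPM against 48.3, 43.3 and 35.0 CPM. At matched depth these 3 genes were at −0.47, −0.30 and −0.37. Pmaip1, which encodes the death-promoting protein Noxa, was at −0.80, and at −0.10 at matched depth. Cxcr4, the bone marrow homing receptor of ageing neutrophils, was at 32.9, 17.2 and 103.5 CPM against 48.5, 32.0 and 163.8 CPM, a log2 ratio of −0.62 that was −0.11 at matched depth. Gngt2, a G protein gamma subunit gene, Gm19951 and Acot1, an acyl-CoA thioesterase gene, were at −0.77, −0.83 and −0.73, and at −0.30, −0.23 and −0.34 at matched depth. Without MHTO3, Gm19951 (−0.63) and Acot1 (−0.57) were not called. The tagged cells with little S100a8 and S100a9 held more of the lectins than either group, at 139 CPM for Clec4a3 and 79.7 CPM for Clec4n. Their part in these results was not tested.

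Gene lists of neutrophil maturation and activation showed few calls, each read against 0.151% higher and 0.936% lower over all genes. Of 15 measured secondary granule genes 0 were called (median 0.11), and of 15 gelatinase granule genes 0 (median 0.04). Cd177, a neutrophil surface glycoprotein, was at 583, 540.4 and 483 CPM against 438, 424 and 378 CPM (log2 ratio 0.37), and Camp, the cathelicidin gene, at 364, 1043 and 244 CPM against 518, 942 and 224 CPM (log2 ratio −0.08). Neither was called. Of 15 measured mature circulating neutrophil genes 0 were called (median −0.16), and Csf3r, the G-CSF receptor, stood at −0.31.

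Of 19 measured G-CSF and STAT3 response genes, 1 was called lower (Saa3) and 0 higher, with a median of −0.07. Prok2, a chemoattractant peptide gene of this list, was at 1871, 1782 and 1683 CPM against 1427, 1450.2 and 1387 CPM, a log2 ratio of 0.32 that was 0.05 at matched depth. Socs3, the feedback inhibitor of STAT3 signalling, was at −0.04 at matched depth. Of 14 measured interferon-stimulated genes 1 was called lower (Slfn5, −0.68, and −0.41 at matched depth), with a median of −0.19. Of 11 measured chemokine and cytokine genes 1 was called lower (Csf1, −0.63, and −0.08 at matched depth). Without MHTO3, Slfn5 (−0.55) and Csf1 (−0.54) were not called. Il1b, the interleukin 1 beta gene, was at 786, 312 and 7774 CPM against 1148, 491 and 9899 CPM, so that the spread between hashtags far exceeded the difference between the groups (log2 ratio −0.51, not called, and −0.59 and called without MHTO5).

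Lists of NF-kB feedback, immediate-early, NADPH oxidase, glycolysis, antioxidant, antigen presentation, actin and ribosomal protein genes had 0 called members, with medians from −0.28 to 0.03. The sole primary granule gene called was Elane, and of 11 measured lipid handling genes 2 were called lower (Apoe and Acot1). At matched depth, across all 25 lists, the called genes were the 5 cluster genes and Elane.

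Levels of the cluster genes followed the stefin share on both sides of the limit, in bands drawn after the values were seen. Averaged over hashtags, Cstdc5 went from 171.7 CPM in cells with no stefin UMI to 2067 CPM at 0.2% to 0.4%, 2538 CPM at 0.4% to 0.6%, and 17845 CPM at 2% or more. Cstdc4 went from 929 to 8738 CPM and Stfa2l1 from 1158 to 4319 CPM over the same 8 bands. Cells below the limit thus already held more of these genes than cells with no stefin UMI. Cstb stayed between 155 and 183 CPM in all bands, and Saa3 went from 4490 to 2290 CPM. Median depth went over the bands from 6306 to 11637 UMIs, and the top band held 87 cells, 16 of them in its smallest hashtag.

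**Figure D4:**
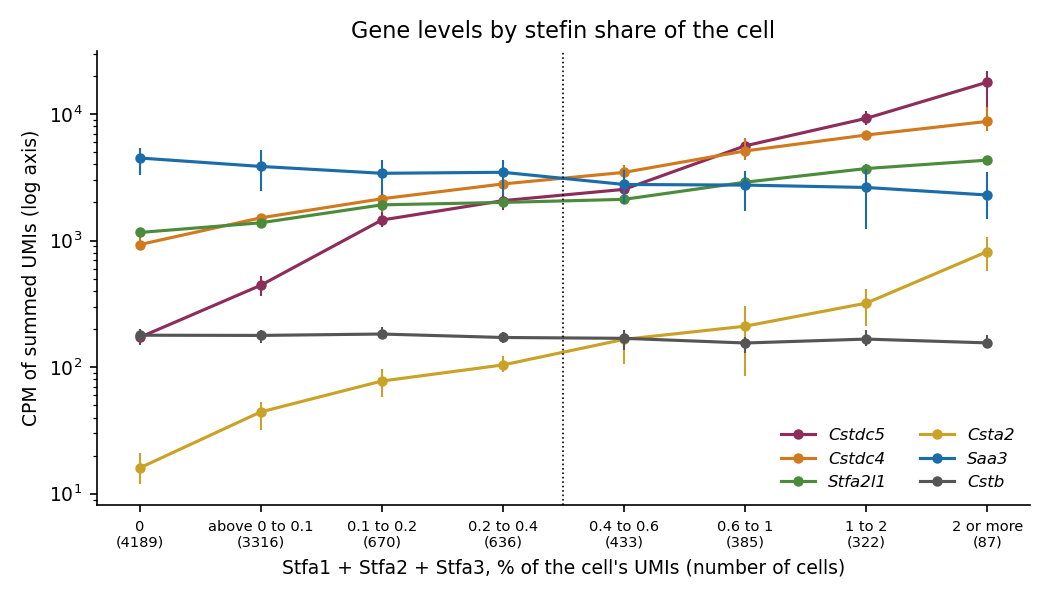
CPM of summed UMIs (log axis, mean of the 3 hashtags with their range) against the stefin share of the cell (% of UMIs, 8 bands, cells per band in brackets); the dotted line is the 0.4% limit. Cstdc5 goes from 171.7 to 17845 CPM, Stfa2l1 from 1158 to 4319 CPM, and Cstb stays between 155 and 183 CPM.

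Single cells carried several genes of the cluster. Of 8 cluster genes (the 3 of the rule and the 5 called), the median stefin-high cell had UMIs of 6 and the median other cell of 3, and 57.8% and 4.02% of cells had 6 or more. With cells thinned to 2000 UMIs these shares were 35.1% and 0.657%. Looking only at the 5 genes outside the rule, 3 stefin-high cells had none of them. Cstdc5 had a UMI in 79.3% of stefin-high cells and 36.2% of the others, against 22.2% of the 126 tagged cells with little S100a8 and S100a9, at median depths of 9990, 7294 and 3754 UMIs. Thinned, these shares were 69.8%, 20.9% and 10.7%. Stfa2l1 had a UMI in 96.4%, 81.8% and 51.6% of the 3 groups. Cstdc6 had one in 14.9%, 1.77% and 0% of them, and in thinned cells with little S100a8 and S100a9, 0 of 121, which allows up to 3.00% by the exact interval.

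The stefin-high cells differed in which stefin made up their counts. Counts of different genes need not be on 1 scale, so the measurement is how the makeup varied from cell to cell. Stfa1 gave 47.2% of their rule UMIs, Stfa2 36.3% and Stfa3 16.5%. The median cell took 47.8% from Stfa1, with quartiles of 4.55% and 83.6%. Stfa1 had the most UMIs of the 3 genes in 669 cells and Stfa2 in 501, while 215 cells had no Stfa1 UMI and 195 no Stfa2 UMI. Cells sat at both ends: 336 (27.4%) took under 10% from Stfa1 and 251 (20.5%) took 90% or more. Among cells with 20 or more rule UMIs the 2 ends together made up 48.0%, about the share (47.8%) among all stefin-high cells. Each hashtag had both ends, at 25.7%, 25.05% and 31.3% under 10% and 22.1%, 21.6% and 18.1% at 90% or more in MHTO3, MHTO4 and MHTO5.

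**Figure D5:**
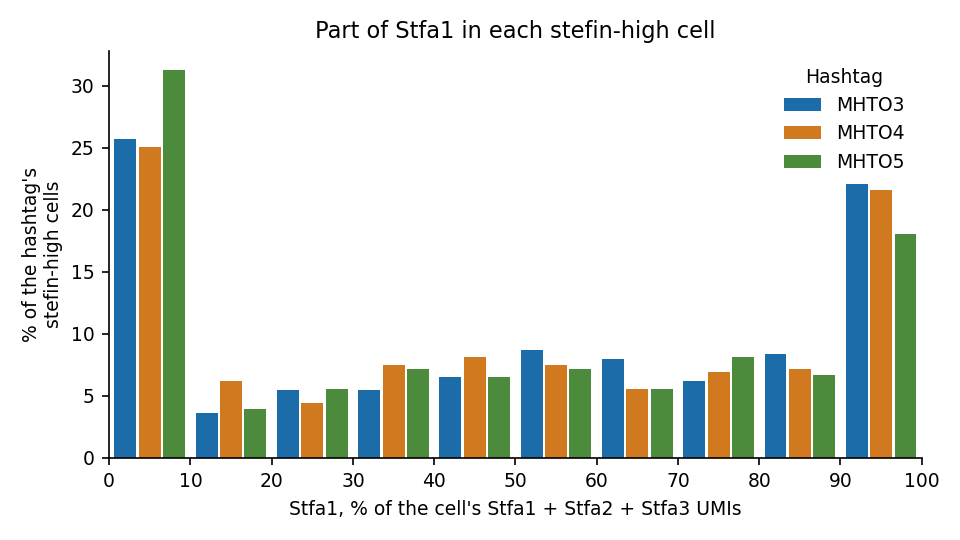
Percentage of the stefin-high cells of each hashtag (vertical axis) by the part of Stfa1 in the cell's Stfa1, Stfa2 and Stfa3 UMIs (horizontal axis, bins of 10 percentage points). The first bin holds 25.05% to 31.3% of cells, the last 18.1% to 22.1%, and those between 3.62% to 8.70% each.

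Cstdc5, Cstdc4, Stfa2l1 and Csta2 averaged lowest at 90% or more Stfa1, and highest at 10% to 25% (Cstdc4) or 25% to 75%. Cstdc6, with few UMIs, instead averaged highest under 10% Stfa1. It was at 25.3, 24.3, 21.7, 13.5 and 11.2 CPM from the Stfa1-poorest to the Stfa1-richest class. Cstdc5 was not used by the rule but was among the markers given for these cells. It averaged 7056 CPM (6146 to 8187 over hashtags) in cells under 10% Stfa1, 8786 CPM (6143 to 12948) at 10% to 25% and 9613 CPM (6238 to 11833) at 25% to 75%. It averaged 3066 CPM (2234 to 3678) at 75% to 90% and 1431 CPM (740 to 1941) at 90% or more. Its hashtag ranges overlapped among the first 3 classes, and both Stfa1-rich classes lay below them. Cstdc4 averaged 5474, 8036, 6518, 3973 and 2717 CPM over the same 5 classes, and Stfa2l1 2891, 3259, 3353, 2805 and 2261 CPM. Csta2 was at 235 CPM in the first class, 371 CPM at 25% to 75% and 149 CPM in the last. The Stfa1-poor cells had a median of 11282 UMIs, 73 stefin UMIs and a stefin share of 0.627%, and the Stfa1-rich cells 8722, 55 and 0.605%. Cells at 25% to 75% had more stefin in total, with 10098 UMIs, 108 stefin UMIs and a share of 1.09%. The hashtag ranges of the 2 end classes (under 10% and 90% or more) did not overlap for Cstdc5, Cstdc4 or Stfa2l1. Ly6g averaged 914 CPM (751 to 998) and 825 CPM (737 to 916) in these end classes, so that hashtag ranges overlapped for this neutrophil marker. The split was made after the values were seen, and the parts of depth and of the total stefin share in it were not tested.

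Across cells thinned to 2000 UMIs, some pairs of cluster genes went together. Over 1220 stefin-high cells, Spearman's rho, averaged over hashtags, was 0.50 for Stfa2 with Stfa3, 0.50 for Stfa2 with Cstdc5 and 0.51 for Stfa3 with Cstdc5. Cstdc4 with Stfa2l1 had 0.42. Other pairs were lower, such as 0.13 for Stfa2 with Csta2, 0.15 for Stfa3 with Stfa2l1 and 0.02 for Csta2 with Cstdc6. Stfa1 had −0.28 with Stfa2, −0.20 with Stfa3, −0.03 with Cstdc5 and 0.13 with Stfa2l1. The cells were chosen on the sum of the 3 rule genes, whose part in these values was not tested. Over all 9893 tagged neutrophils at this depth, Stfa1 had 0.25 with Stfa2 and 0.28 with Cstdc5, against 0.49 for Stfa2 with Stfa3. The points share 1 library and sparse counts, and these values are descriptions.

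The cells that met the rule in the other libraries had the same cluster genes high. In AT3, 3 hashtags gave log2 ratios of 4.02 for Cstdc5, 2.99 for Csta2, 2.005 for Cstdc4 and 1.31 for Stfa2l1, all called (Cstdc6 was under 20 CPM), against 153 called of 3409 measured genes (4.49%; 13 higher, 0.381%; 140 lower, 4.11%). In naive, 2 hashtags had enough cells, and 843 of 4137 genes were called (20.4%; 138 higher, 3.34%; 705 lower, 17%). There the ratios of these 4 genes were 4.99, 3.41, 2.22 and 2.39, all called, and Cstdc6 was not called. Naive MHTO3 and MHTO4 had 36 and 42 stefin-high cells, and several genes were lower in MHTO4: Cstdc5 was at 8490 CPM in MHTO3 and 390.0 CPM in MHTO4, and Stfa2 at 3740 and 188 CPM, while Stfa1 was at 6774 and 6275 CPM. In AT3 the same genes lay closer together, with Cstdc5 at 4425, 3228 and 2095 CPM in MHTO7, MHTO8 and MHTO10.

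The lower genes were less alike. Of 26 lower genes measured in both, 11 were called lower in AT3 (42.3% of them, and 9.24% of the 119 called lower there), and 26 had a ratio below 0, as did 75.4% of all 3050 genes measured in both. Of 27 measured in both, 8 were called lower in naive (29.6% of them, and 1.77% of 451), and 21 had a ratio below 0, against 70.2% of all 3093. Prok2 was called higher in AT3 (0.79, and 0.63 to 1.08 over hashtags) and naive (2.47) but not in AT3-gcsf (0.32). The naive hashtags stood far apart, at 0.40 and 4.53, and differences between the libraries were not tested. AT3 stefin-high cells were deeper than the others in MHTO8 (medians of 8156.5 and 4933 UMIs) and MHTO10 (4799 and 3267) but not in MHTO7 (9728 and 9812), which held 100 of the 225. Weighted to matched depth there were 6 higher and 38 lower calls in AT3 (1.36% of 3238 measured genes). There were 146 and 652 in naive (19.5% of 4083), and 5 and 2 in AT3-gcsf (0.224% of 3127). In naive a call needed the same sign in 2 hashtags and in the other libraries in 3, so these shares are not directly comparable.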

How the data were processed

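The deposited gene expression matrices are raw counts of UMIs, by gene and barcode, per the file headers. The submitters' processing notes name bcl2fastq 2.20.0.422, Cell Ranger 4.0.0 and the build mm10. The hashtag files hold deposited raw counts per tag and barcode; their counting program: not given in the sources used here. Hashtag files were matched to libraries by barcode: 95.7%, 97.4% and 94.1% of naive, AT3 and AT3-gcsf barcodes had a dominant tag in 1 file, against at most 0.672% in any other. A tag counted when it held at least 80% of the named-tag counts and 20 counts. Cells with 2 tags were dropped that way, and doublets within a tag remain. Of 10776 AT3-gcsf barcodes passing the gene and mitochondrial filters, 612 had no dominant tag and 126 tagged cells had under 2% S100a8 and S100a9.

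Counts were summed per hashtag and group and scaled to CPM. A hashtag entered with at least 20 cells in each group. Scripts used Python 3.11.15, numpy 2.4.6, scipy 1.17.1, pandas 2.3.3 and, for 1 alternative, TMM factors of edgeR 4.0.16, and were tested on simulated data. Of 32285 gene IDs, 32158 matched GENCODE vM21 (GRCm38, the build also called mm10). Depth weighting gave each other cell a weight so that the weights in each of 10 equal bins of the stefin-high UMI distribution matched. Intervals are exact 95% and cover counting error only. The text names the rule genes, the 15 called genes with the largest and 10 with the smallest ratio, every measured stefin or cystatin gene, and 2 genes at each end of each other list, in part; exceptions are marked. Members, lists and these rules were chosen with earlier results of these data known. The 19 alternatives cover the thresholds, tags, scaling, depth, pseudocount and level limit.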

Additional observations from a re-analysis of the deposited data

Results flagged for a closer look

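Clec4a3, a C-type lectin receptor gene, differed in sign between 2 libraries. In naive its mean log2 ratio of stefin-high to other cells was 0.18 ± 0.42 (counting SE) and above 0 in each of the 2 hashtags that could be compared, while in AT3-gcsf it was −1.12 ± 0.08 and below 0 in each of 3 hashtags. The naive value is smaller than its counting error, and the difference between the libraries was not tested. The naive value rests on 36 and 42 stefin-high cells, and the AT3-gcsf value was −0.47 at matched depth.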

How the results depend on the processing

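Without replicate libraries, no alternative measures spread between mice. In 19 alternatives the stefin and cystatin list had 4 to 6 members called higher; Cstdc5, Csta2, Cstdc4 and Stfa2l1 were called in all 19 and Cstdc6 in 14. The share of stefin-high cells (12.2%) was 18.6% at a limit of 0.2%, 5.70% at 0.8%, 13.1% with S100a8 and S100a9 at 10% of UMIs, 13.2% without MHTO3 and 10.8% without MHTO4. The count of called genes (36) was 18 at 0.2%, 76 at 0.8%, 14 with S100a8 and S100a9 at 10%, 168 with cells thinned to 2000 UMIs (16 higher, 152 lower), 57 without MHTO5, 64 and 15 with pseudocounts of 1 and 20 CPM, 20 with TMM scaling, 7 with depth weighting, 19 with a limit of 50 CPM and 9 at 2-fold. TMM moved the median of all genes from −0.14 to 0.01 and gave 7 higher (the 5, Csta3 and Atp1b3) and 13 lower. Sftpc reversed to 1.61 at 0.2%, where the cell that holds most of its UMIs, with a stefin share of 0.314%, joins the stefin-high group. With thinning the rule was applied again to the thinned counts, so the members changed as well. Where no construction is named, the cause was not tested. Leaving out the 1% of cells with the most UMIs, as a guard against doublets within a tag, gave 34 called genes, and Elane then stood at −0.10. With each cell's UMIs divided at random in 2, cells chosen on 1 portion and measured on the other, 45 were called, the 5 included. No paired analysis was possible because each condition has 1 library and its hashtags have no stated partners elsewhere. Depth limits rare genes such as Cstdc6 and Csta3, whose UMIs reach few cells.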

Other observations

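Every AT3-gcsf cell was thinned to 2000 UMIs, which gives each cell equal weight, and the rule was applied again to the thinned counts. It then chose 1273 of 9893 neutrophils, not the same set as the 1227 above. In this class 168 genes were called, 16 of them higher and the rest lower. Whether the higher calls exceed the share called over all genes measured after thinning was not tested. Of the 16, 11 lie outside the chromosome 16 cluster. These genes were named after their values were seen. Cd177, a neutrophil surface glycoprotein, was at 412 CPM against 263 CPM (log2 ratio 0.63), and Olfm4, a granule glycoprotein gene of a neutrophil subset, at 65.0 against 37.4 CPM (0.70). Itgb2l, an integrin beta 2-like gene, was at 35.2 against 20.7 CPM (0.64), and Ggt1, a glutathione-degrading enzyme gene, at 188 against 123 CPM (0.60). In the summed counts of the 3 hashtags none of these 4 was called, but Olfm4 was without MHTO5 (0.83) and at a limit of 0.2% (0.76). With the other cells weighted to matched depth, Cd177 was at 0.04 and Ggt1 at 0.05, neither called. Of the 19 alternatives, thinning was the only 1 that called either of these 2 genes. Olfm4, for which the summed counts were lower in MHTO5 (37.1 against 57.6 CPM) and higher in MHTO3 and MHTO4, was higher in each hashtag after thinning. The parts of equal depth and of the changed members in these values were not tested.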
